A study of Mus musculus with 338 samples.

Results

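Islets of AKR/J mice, an inbred laboratory strain, were compared after 90 and after 2 days of feeding with HFHS, a diet rich in fat and sugar. The comparison took the AKR/J HFHS libraries of the raw count table by their labels: 8 mice at day 90 and 6 at day 2, 14 of the 338 libraries of the series. The AKR/J HFHS mice of day 10 (6) and day 30 (8) were placed between these ends. AKR/J mice on regular chow (RC), 5 at day 2 and 8 at day 90, gave the same span of time without the diet. The series covers 6 inbred strains on both diets at these 4 days, and its AKR/J part held 55 libraries in 8 groups. No allele or agent other than strain and diet is named for any group. Each library came from 1 mouse, from at least 150 islets. The kit took 200 ng of total RNA, selects polyadenylated RNA and does not mark the strand.

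Day 2 is not an untreated state, since those mice had already eaten the diet for 2 days. Ages, sexes, cages and the hour of islet isolation are not given in the sources used here, so time on the diet and age cannot be told apart within HFHS, and p-values measure the spread between these mice.

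Islets are small endocrine organs in the pancreas. Beta cells make insulin, alpha cells glucagon, delta cells somatostatin and PP cells pancreatic polypeptide, and blood vessels, nerve fibres with Schwann cells, stromal cells and immune cells lie among them. Under a long demand for insulin, mouse beta cells are known to enlarge and divide, to load their endoplasmic reticulum (ER) with proinsulin, and in some models to lose genes of the mature cell and gain Aldh1a3, a retinaldehyde dehydrogenase. An islet library averages all of these cells. Fewer cells of a type and less RNA per cell cannot be told apart in such samples, and a higher share of 1 cell type lowers the share of all others.

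The AKR/J libraries held 9526926 to 44051043 reads assigned to genes. Ins1 and Ins2 together took 27.8 to 33.4% of them at day 90 on HFHS and 22.8 to 31.8% at day 2. No marker of the beta, alpha or delta and PP cell lists was at 0 in all mice of a group. Among the day 90 HFHS mice, 3 stood apart: 5HF41 in immune markers, 5HF44 in the hormones of alpha, delta and PP cells, and 5HF47 as the shallowest library. Among the day 2 HFHS mice, 5HF5 and 5HF6 stood apart in the summed levels of several gene lists. Where leaving out these 3 or these 2 mice ends a call of a named gene or moves a list's count by over 1.5 times, the value is given beside the result or among the limits at the end. Both choices were made after the data were seen. Levels below are in CPM, edgeR's read counts divided by a library size scaled by the trimmed mean of M values, and changes are log2 fold changes with their standard error (SE) and a Benjamini-Hochberg adjusted p over 15465 genes. Genes passed at an adjusted p under 0.05, and only genes that passed are said to have risen or fallen.

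Between day 2 and day 90 on HFHS, 5959 of 15465 genes passed (38.5%), 2596 of them higher (16.8%) and 3363 lower (21.7%). The median change over all genes was -0.01. Changes of at least 2-fold were found for 839 genes, 333 higher and 506 lower. In 895 genes (5.79%) the day 90 and day 2 mice did not overlap, with day 90 above in 412 (2.66%) and below in 483 (3.12%). The count of calls ran from 4964 without 5HF4 to 6587 without 5HF5, and it was 7274 without 5HF5 and 5HF6. It was 3578 when only these 14 libraries were fitted and 2371 of 16498 genes tested with all 6 strains in the fit, which changes both the estimate of the spread and the genes that pass the filter.

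Among genes with a mean of at least 5 CPM and no overlap between the days, Aldh1a3 rose most. Its level was 3.19 CPM in the lowest, 4.02 in the median and 6.71 in the highest day 2 mouse, and 45.3, 193 and 262 CPM in the day 90 mice. All 8 day 90 mice lay above all 6 day 2 mice, and the lowest of them was 5HF44. This was a 37.9-fold rise (log2 change 5.25, SE 0.426, adjusted p 1.7e-13). Most of it came late: the medians were 9.05 CPM at day 10 and 14.8 at day 30, and 34.4% of the change in mean log level was reached by day 30.

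The other large rises named here had no overlap between the days, which the naming rule required of them. Rasd2, a small Ras-like GTPase, ran from 1.24 to 2.19 CPM (median 1.64) at day 2 and from 7.29 to 12.5 (median 10.1) at day 90 (log2 change 2.54, SE 0.215, adjusted p 2.69e-13). Gabra4, a subunit of the GABA-A receptor, went from a median of 6.52 to 39.1 CPM, and Barhl1, a homeobox factor, from 4.27 to 21.1. Both reached more than 50% of their change by day 30. Serpina7, which encodes thyroxine-binding globulin, stayed near its day 2 median of 18.6 CPM at day 10 (15.9) and day 30 (20.6) and had a median of 76.4 at day 90 (log2 change 2.03, SE 0.216, adjusted p 2.09e-10). Zcchc12 (2.05), Dock3, an exchange factor for Rac (2.02), Nmnat2, an enzyme of NAD synthesis (1.89), and Smoc1, a secreted matricellular protein (1.72), rose by the log2 changes given.

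Cck, the gene of the gut hormone cholecystokinin, lies outside the naming rule and was chosen after its values were seen. It was at 0.0745 to 0.318 CPM (median 0.233) in the day 2 mice and at 0.837 to 57.6 (median 3.8) in the day 90 mice. The groups did not overlap, but the day 90 mice spread widely: 5HF42, 5HF48 and 5HF43 had 57.6, 26.2 and 19.5 CPM, and the other 5 had less than 4. The fitted log2 change was 5.71 (SE 0.889, adjusted p 1.26e-06), and 4.92 without 5HF42.

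The largest falls were likewise named among genes of at least 5 CPM with no overlap between the days. They included several genes known from neurons. Npy, a neuropeptide of sympathetic nerves, ran from 3.23 to 24.7 CPM (median 14.6) at day 2 and from 0.397 to 2.91 (median 1.18) at day 90 (10.4-fold lower, log2 change -3.38, SE 0.359, adjusted p 2.17e-10). Gap43, a protein of growing axons, fell from a median of 12.2 to 2.19 CPM, and all 8 day 90 mice lay below all day 2 mice. Nsg2 (-2.49), a vesicle protein of neurons, Uchl1 (-2.15), a neuronal ubiquitin hydrolase, and Igf2bp2 (-2.14), an RNA-binding protein, fell by the log2 changes given. Nr4a1, an early response gene, fell by 1.93 on the log2 scale, with day 2 values up to 158.1 CPM in 5HF4, and the change was -1.28 without that mouse.

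**Figure D1:**
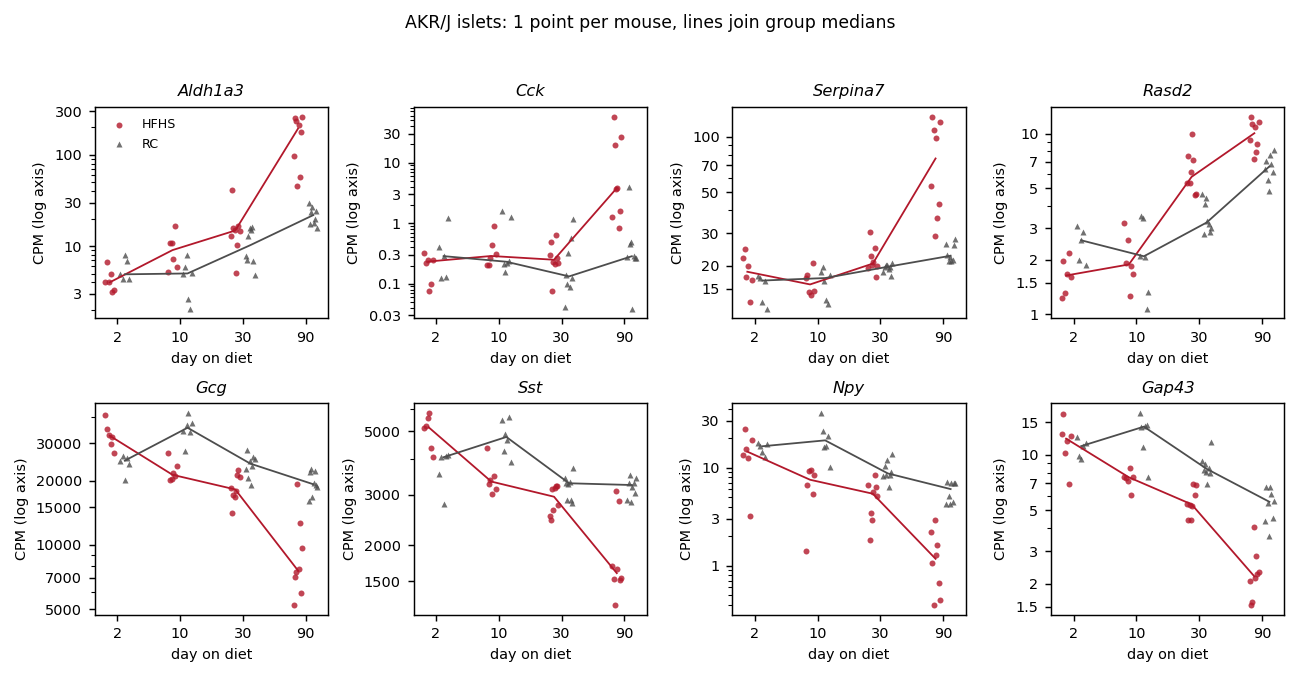
CPM on log axes (y) against day on diet (x) for 8 genes, with 1 point per AKR/J mouse, circles for HFHS, triangles for RC and lines through the group medians. Aldh1a3, Cck and Serpina7 stand apart at day 90 on HFHS, and Gcg, Sst, Npy and Gap43 are lowest there.

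The day 90 mice differed among themselves in the size of the shift. Aldh1a3 was at 211 to 262 CPM in 5HF42, 5HF43, 5HF45 and 5HF48, at 176 in 5HF47, at 98.1 in 5HF41, and at 56.4 and 45.3 in 5HF46 and 5HF44. The same 4 mice had the highest Serpina7, Gc, Chgb and Pdk1 and the lowest Trpm5 and Slc2a2 of the group. 5HF44 and 5HF46 were the 2 mice nearest to the day 2 median for Aldh1a3, Serpina7, Sst, Irx1 and Gcg. The lowest Gcg was in 5HF41 (5228 CPM) and 5HF47 (5965), which were not among the 4 mice with the highest Aldh1a3. The genes of this description were chosen after their values were seen, and it carries no test.

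**Figure D2:**
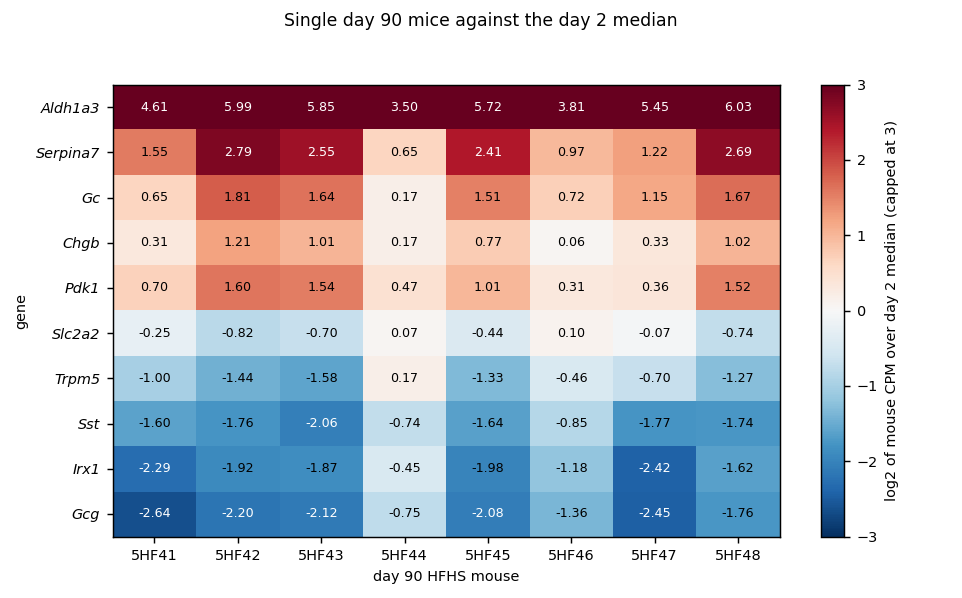
Log2 ratio of each day 90 HFHS mouse (columns) to the median of the day 2 HFHS mice for 10 genes (rows), with red above and blue below that median and the colour capped at 3. Mice 5HF42, 5HF43, 5HF45 and 5HF48 have the largest ratios for Aldh1a3 (5.72 to 6.03) and 5HF44 the smallest (3.50).

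Markers of alpha cells were lower at day 90. Of 15 genes of the alpha cell list, 9 fell and 2 rose, with a median log2 change of -1.18 against -0.01 over all genes. Gcg, which encodes glucagon, ran from 27060 to 40800 CPM (median 32530) at day 2 and from 5228 to 19300 (median 7580) at day 90, with no overlap between the groups. It fell 3.51-fold (log2 change -1.81, SE 0.16, adjusted p 1.16e-12). Transcription factors of alpha cells fell with it. Irx1 went from a median of 15.6 to 4.2 CPM and Irx2 from 21.1 to 6.69, and for both all 8 day 90 mice were below all day 2 mice. The fall of Gcg ran through the whole course, with medians of 21330 at day 10 and 18210 at day 30. Of the 11 called genes, 9 falls and 2 rises together, 10 made more than 50% of their change after day 30.

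Gc, the vitamin D-binding protein and a gene of the alpha cell list, went the other way. It ran from 76.4 to 119.4 CPM (median 109.1) at day 2 and from 122.4 to 382 (median 277) at day 90, again with no overlap (log2 change 1.32, SE 0.149, adjusted p 9.63e-10). At day 10 and day 30 its medians were 78.6 and 93.6, so the rise lay wholly after day 30.

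Delta and PP cell genes fell likewise. Of 9 tested, 7 fell and 2 rose (median -0.89). Sst, which encodes somatostatin, ran from 4054 to 5787 CPM (median 5165) at day 2 and from 1241 to 3098 (median 1601) at day 90 (log2 change -1.40, SE 0.13, adjusted p 4.44e-12), and no day 90 mouse reached a day 2 value. Pyy, which encodes peptide YY, fell from a median of 2536 to 657 CPM and had made 50.9% of its change by day 10. Rbp4, the retinol carrier, fell from 213 to 79 CPM. Ppy, which encodes pancreatic polypeptide, overlapped between the groups: 2564 to 9140 CPM at day 2 and 1099 to 4444 at day 90 (log2 change -1.26, SE 0.247, adjusted p 5.95e-05). The counts of falls were 9 to 10 for alpha and 7 for delta and PP cell genes when each mouse was left out, and the same 9 and 7 without the 3 mice that stood apart.

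Beta cell genes moved in both directions. Of 27 in the list, 8 rose and 8 fell (median 0.10), 5 fell without 5HF43 or without 5HF5 and 5HF6, and 3 rose and 3 fell with all 6 strains in the fit. On RC 11 of the 27 rose and 1 fell over the same time. The change was more negative on HFHS in 9 and more positive in 1, against 7.04% and 4.56% over all genes. Over all genes this balance depended on the scaling, as given below. On HFHS the insulin genes did not pass. Ins1 ran from 87790 to 140500 CPM at day 2 and from 101000 to 157100 at day 90 (log2 change 0.14, SE 0.114, adjusted p 0.342), and Ins2 changed by 0.09 (SE 0.107, adjusted p 0.512). Reads of these near-identical genes may have been divided between them. Their summed share of all reads on HFHS was 27.4 ± 4.37% (SD, n = 6) at day 2 and 29.4 ± 1.74% (n = 8) at day 90, a difference within the spread between mice (two-sided exact permutation p = 0.248). On RC the share fell from 27 ± 1.8% (n = 5) to 24.3 ± 1.2% (n = 8). The same permutation test gave p = 0.0101 there, and 0.0202 after Benjamini-Hochberg adjustment over both diets.

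Among the rises on HFHS was Chgb, which encodes the granule protein chromogranin B. It ran from 2521 to 3151 CPM at day 2 and from 3043 to 6783 at day 90 (log2 change 0.67, SE 0.113, adjusted p 5.17e-06), with 7 of 8 day 90 mice above all day 2 mice. Iapp, the islet amyloid peptide co-secreted with insulin (0.35), and Slc2a13, a proton and myo-inositol transporter (0.69), rose as well. Glp1r, the receptor of the incretin GLP-1, rose by a log2 change of 0.50, but the groups overlapped: 5HF1 to 5HF4 were at 154.3 to 190.4 CPM, 5HF5 and 5HF6 at 352.7 and 297.6, and the day 90 mice at 215.7 to 361.4. With all 6 strains in the fit it did not pass (adjusted p 0.121). Among the falls were Chga, chromogranin A (-0.39), Sytl4, granuphilin of the insulin granule (-0.79), Trpm5, a cation channel of glucose-stimulated firing (-0.82), and Slc2a2, the glucose transporter GLUT2 (-0.49). Slc2a2 ran from 347 to 719 CPM at day 2 and from 257 to 484 at day 90, and the 2 groups overlapped. Without 5HF5 and 5HF6 its change was -0.22 and did not pass (adjusted p 0.154). Mafa and Nkx6-1, transcription factors of mature beta cells, did not pass (log2 changes 0.14 and 0.12). Iapp, Glp1r, Trpm5, Slc2a2, Mafa and Nkx6-1 were chosen after their values were seen.

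Aldh1a3 belongs to a list of 19 genes that are low in mature beta cells. It was the only 1 of the list that rose, and 9 fell (median -0.48). Neurog3, the factor of endocrine progenitors, fell from a median of 5.54 to 1.94 CPM (log2 change -1.44, SE 0.163, adjusted p 7.46e-10), with no overlap. Acot7, an acyl-CoA thioesterase, fell by 1.53 and Sox9, a factor of progenitors and duct cells, by 1.14 on the log2 scale. When each mouse was left out, 1 to 3 genes of the list rose, with 2 without 5HF1 or 5HF44 and 3 without 5HF46. On RC over the same time 1 gene of the list also rose and 9 fell (median -0.47). The change was more positive on HFHS than on RC for 1 gene and more negative for 1.

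Markers of nerve fibres and Schwann cells were lower in the same mice. Of 11 tested, 10 fell and none rose (median -1.70). Prph, the intermediate filament peripherin, fell from a median of 16.5 to 1.65 CPM, and S100b, a glial calcium-binding protein, from 2.15 to 0.461. The summed level of the list was 165.2 to 236.6 CPM at day 2 and 106.7 to 176.7 at day 90. Whichever mouse was left out, 10 of the 11 fell. With the mean log level of this list as a covariate, an alternative chosen after the data were seen, 979 genes passed in place of 5959, 8 alpha cell genes and 5 delta and PP cell genes fell, and 2 ER genes rose. The list fell between the same groups, so its covariate and the days overlap, and its part in the other results was not tested.

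Neuropeptide and hormone genes moved in both directions. Of 25 tested, 8 rose and 13 fell (median -0.39). Their summed level split the day 2 mice, with 101200 to 103800 CPM in 5HF1 to 5HF4 and 82420 and 84270 in 5HF5 and 5HF6, against 64970 to 92900 at day 90, and the counts without these 2 mice were also 8 and 13. Beside Npy, the neuronal peptides Vip and Tac1 fell: Vip ran from 9.56 to 147.8 CPM (median 64.7) at day 2 and from 1.52 to 12.9 (median 3.69) at day 90 (log2 change -3.81, SE 0.439), and Tac1, which encodes substance P, from 0.398 to 9.41 and from 0.0371 to 0.575 CPM (log2 change -3.86, SE 0.431). Both were chosen after their values were seen, and 5HF5 was the lowest day 2 mouse for Npy, Vip and Tac1. Cck, Scg2 and Nucb2 were among those that rose. Scg2, the granule protein secretogranin II, went from a median of 9917 to 17670 CPM with no overlap (log2 change 0.85, SE 0.085, adjusted p 3.1e-11), and Nucb2, the precursor of nesfatin, from 369 to 703 with 7 of 8 day 90 mice above all day 2 mice.

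**Figure D3:**
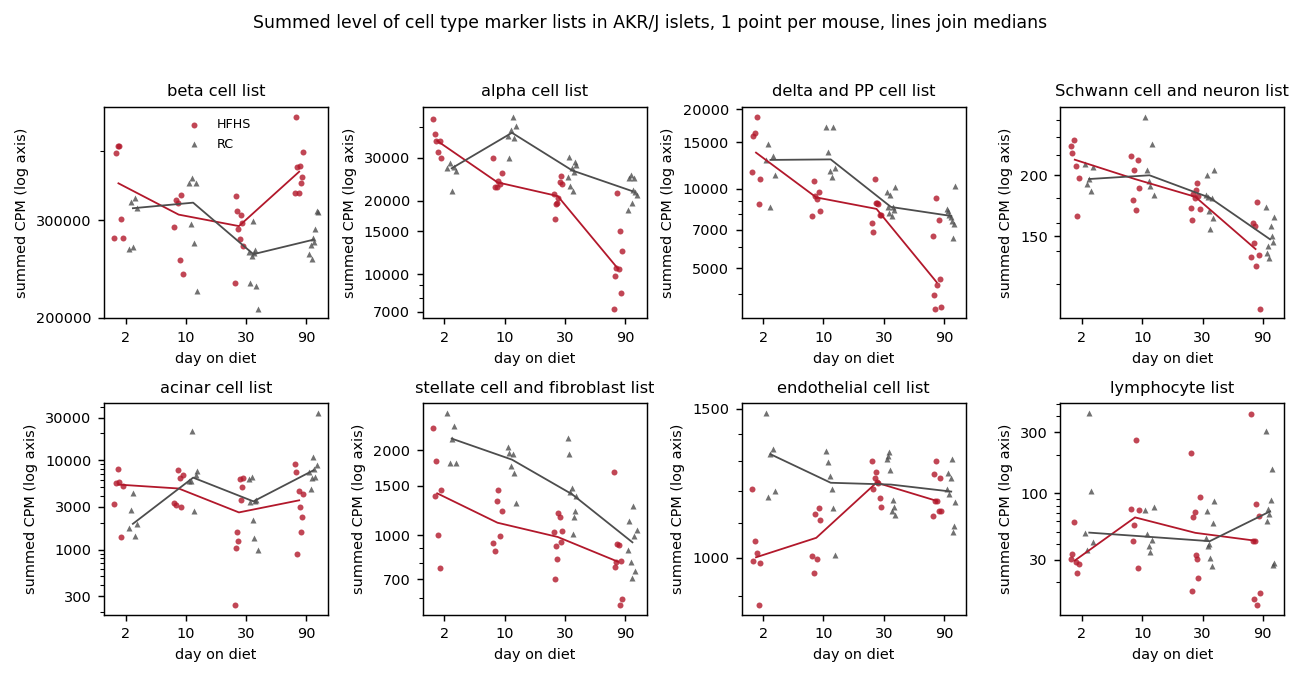
Summed CPM (log y axes) of 8 lists of cell type markers against day on diet (x), with 1 point per AKR/J mouse, circles for HFHS, triangles for RC and lines through the medians. On HFHS the alpha cell sum falls from 29920 to 43300 at day 2 to 7225 to 21610 at day 90, and 5HF41 is the high lymphocyte point (419.6) at day 90.

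Genes of ER stress and protein folding rose at day 90. When unfolded proteins build up in the ER, the sensors IRE1, PERK and ATF6 switch on genes of chaperones, of degradation and of the stress response, partly through the ER stress response element that ATF6 and XBP1 bind. Of 36 such genes, 22 rose and none fell (median 0.28). With all 6 strains in the fit 12 rose, and when each mouse was left out 19 to 24 rose, with 1 falling without 5HF5, 5HF6 or 5HF47. Without both 5HF5 and 5HF6, 17 rose and 1 fell. Chac1, a glutathione-degrading enzyme induced by ATF4, ran from 6.5 to 9.03 CPM (median 8.25) at day 2 and from 9.31 to 39.3 (median 21.5) at day 90, with no overlap (log2 change 1.56, SE 0.268, adjusted p 7e-06). The day 90 mice split by number on both diets: those numbered 41 to 44 were at 9.31 to 19 CPM on HFHS and 10.4 to 16.5 on RC, and those numbered 45 to 48 at 24 to 39.3 and 21.5 to 36.8. What the numbers mark is not given in the sources used here, and their part in this change was not tested. Derl3, a factor of ER-associated degradation, ran from 46.1 to 69.5 CPM and from 65.6 to 177 (log2 change 1.29, SE 0.21, adjusted p 2.73e-06), and 5HF44 was the mouse that overlapped. Sel1l (0.63), of the degradation complex, Dnajc3 (0.55), a co-chaperone, Creld2 (0.74), a secreted ER factor, and Trib3 (0.86), a pseudokinase downstream of ATF4, rose also. On RC 31 of the 36 genes rose over the same time and none fell. The change was more negative on HFHS in 8 and more positive in 1, against 7.04% and 4.56% over all genes. At day 2 the summed level of the list was already 16150 to 20980 CPM on HFHS and 10360 to 12540 on RC. Both ends enter the difference between the diets.

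Hspa5, which encodes the chaperone BiP, did not pass. It ran from 2362 to 3349 CPM at day 2 and from 2408 to 3742 at day 90 (log2 change 0.13, SE 0.102, adjusted p 0.309). Its medians were 2802 at day 2, 1897 at day 10, 2179 at day 30 and 3236 at day 90. The list as a whole had this dip: 19 of 36 genes were lower at day 10 than at day 2 and 18 at day 30, and 29 were higher at day 90 than at day 30. These comparisons share the day 2, day 30 or day 90 mice. Derl3 had medians of 57.3, 38.6, 51.3 and 144.5 CPM at the 4 days and Creld2 of 208, 131.5, 141.1 and 345. Creld2, Trib3 and Hspa5 were chosen after their values were seen.

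Promoters were read from RefSeq (GRCm38.p6), 250 bases before each start, for 32 of the 36 genes. The ER stress response element was searched on both strands as CCAAT, any 9 bases and CCACG. It lay in a promoter of 9 of the 32 genes and of 35 of all 27025 genes, which is 37 of 32851 promoters (0.113%). Of the 9 genes with it, 7 rose, and of the 23 without it, 14 rose. Without 5HF5 these counts were 4 and 14, without 5HF5 and 5HF6 they were 4 and 11, and with all 6 strains in the fit 4 and 8. The stretches below show it in 3 genes that rose and in Hspa5, which did not pass, with the element in capitals, each read along the strand of its gene, which for Derl3 and Creld2 holds the element in the opposite direction. They lie at chr10:75893221-75893280 (Derl3, plus strand), chr15:88819499-88819558 (Creld2, plus), chr14:118937806-118937865 (Dnajc3, plus) and chr2:34772004-34772063 (Hspa5, plus). The bases that follow the start in the promoter table were sought in the GENCODE transcripts of the gene and were not found for Derl3 and Dnajc3, so the start used for these 2 was not matched. A match describes these letters and is neither a measured site nor a cause.
Derl3: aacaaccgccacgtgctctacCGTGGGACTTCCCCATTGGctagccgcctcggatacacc
Creld2: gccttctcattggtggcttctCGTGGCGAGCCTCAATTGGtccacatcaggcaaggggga
Dnajc3: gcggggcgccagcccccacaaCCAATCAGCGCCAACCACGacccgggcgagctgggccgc
Hspa5: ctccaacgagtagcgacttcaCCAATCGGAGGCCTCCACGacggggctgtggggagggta

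Cell cycle genes were lower at day 90 than at day 2. Of 44, 24 fell and none rose (median -0.51). Pcna, the clamp of DNA polymerase, ran from 12.8 to 21.8 CPM (median 18.1) at day 2 and from 9.2 to 12.4 (median 11.4) at day 90, with no overlap (log2 change -0.68, SE 0.0823, adjusted p 4.87e-09). Tyms, thymidylate synthase, went from a median of 8.08 to 4.84 CPM, also with no overlap, and Mcm6, of the replicative helicase, from 24.4 to 14.1. Mki67, a marker of dividing cells, did not pass: it ran from 15.3 to 71.6 CPM at day 2 and from 13.1 to 36.7 at day 90 (log2 change -0.51, SE 0.271, adjusted p 0.134), and its highest value was in the day 2 mouse 5HF6. Without 5HF6, 15 genes of the list fell, and 12 without the 3 day 90 mice that stood apart, and with all 6 strains in the fit 7 fell. Mki67 was chosen after its values were seen.

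The fall was early. Of the 24 genes, 23 had made at least 50% of their change by day 10. Pcna had medians of 18.1, 10.3, 10.3 and 11.4 CPM at days 2, 10, 30 and 90, and Mcm6 of 24.4, 10, 8.92 and 14.1. Between day 30 and day 90, 16 of the 44 genes rose and none fell. On RC Pcna had medians of 9.59 CPM at day 2 and 9.89 at day 90, and all 5 day 2 RC mice (8.06 to 10.4 CPM) lay below all 6 day 2 HFHS mice. The list as a whole was less distinct, with day 2 sums of 1430 to 2465 CPM on HFHS and 1286 to 1575 on RC, which overlap. On RC 3 of the 44 genes fell and 1 rose. The change was more negative on HFHS in 7 and more positive in none, against 7.04% and 4.56% over all genes.

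E2F-type sites, which the E2F factors of the cell cycle bind, were searched as TTTCCCGC, TTTGGCGC, TTTCGCGC or TTTGCCGC on both strands, and their reverse complements overlap for some of these. They lay in 611 of 32851 promoters (1.86%), which belong to 583 of 27025 genes, and in promoters of 5 of the 34 cell cycle genes with a promoter. All 5 of these genes fell, and of the 29 without a match 13 fell. Without the 3 day 90 mice that stood apart these counts were 3 and 6, without 5HF6 they were 4 and 8, and with all 6 strains in the fit 3 and 4. Stretches of 3 of the 5 follow with the match in capitals, along the strand of each gene. They lie at chr1:128359782-128359841 (Mcm6, minus strand), chr5:138172015-138172074 (Mcm7, minus) and chr11:98907987-98908046 (Cdc6, plus).
Mcm6: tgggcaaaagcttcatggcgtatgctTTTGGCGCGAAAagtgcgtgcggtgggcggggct
Mcm7: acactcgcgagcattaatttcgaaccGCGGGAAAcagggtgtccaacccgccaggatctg
Cdc6: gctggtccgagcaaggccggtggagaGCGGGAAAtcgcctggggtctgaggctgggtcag

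The capitals of Mcm6 hold overlapping matches on both strands, and its start was not matched to a GENCODE transcript. Mcm7, of the same helicase, fell by 0.51 (SE 0.0942), and Cdc6, which loads the helicase and was chosen after its values were seen, by 0.93 (SE 0.202) on the log2 scale. Of 14 inhibitors of the cell cycle and senescence genes, 3 rose and 6 fell (median -0.04), against 16.8% and 21.7% over all genes. Cdkn1a, the inhibitor p21, rose by 0.43 (SE 0.134, adjusted p 0.00978) and was chosen after its values were seen. Cdkn1c, the inhibitor p57, went from a median of 3.72 to 1.48 CPM.

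Genes of energy metabolism fell more often than they rose. Of 33 oxidative phosphorylation genes, 25 fell and none rose, by small amounts (median -0.21). Their summed level split the day 2 mice: it was 4723 to 5167 CPM in 5HF1 to 5HF4 and 3979 and 4127 in 5HF5 and 5HF6, which lay within the 3802 to 4510 of the day 90 mice. Without these 2 mice 29 genes fell. Uqcrc1, of complex III, fell by 0.35 on the log2 scale (SE 0.0534) with 7 of 8 day 90 mice below all day 2 mice. All 25 had made at least 50% of the change by day 10, 32 of 33 were lower at day 30 than at day 2, and 23 were higher at day 90 than at day 30. Without the 3 mice that stood apart 14 fell and 1 rose, and with all 6 strains in the fit 2 fell and Uqcrc1 did not pass (adjusted p 0.246). On RC 6 of the 33 genes fell and 1 rose over the same time. The RC sums were 3608 to 4103 CPM at day 2 and 3519 to 3891 at day 90. The change was more negative on HFHS in 3 genes and more positive in none, against 7.04% and 4.56% over all genes.

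Of 26 genes of glucose entry and glycolysis, 12 fell and 3 rose on HFHS (median -0.16). Pdk1, a kinase that blocks pyruvate dehydrogenase, rose from a median of 20.8 to 37.7 CPM (log2 change 0.99, SE 0.138, adjusted p 9.79e-08). Pcx, pyruvate carboxylase, fell from 228 to 141.5 CPM (log2 change -0.65, SE 0.0884). Of 34 genes of fatty acid oxidation and PPAR targets, 14 fell and 4 rose. Pdk4, another such kinase, had no overlap, with 17.1 to 32.9 CPM (median 26.9) at day 2 and 4.59 to 16.8 (median 7.58) at day 90, and Hadh, a mitochondrial enzyme whose loss raises insulin secretion, fell by 0.46 on the log2 scale. Fatty acid synthesis had 7 rises and 4 falls of 24 (2 falls without 5HF45 and 7 without 5HF6), among them Acly, ATP citrate lyase (0.38, with no overlap). Elovl2, the elongase of very long polyunsaturated fatty acids, ran from 18.7 to 25.5 CPM (median 20.9) at day 2 and from 30.3 to 54.6 (median 37) at day 90, with no overlap (log2 change 0.78, SE 0.105, adjusted p 5.15e-08), and its median was 22.6 at day 30. Of 33 antioxidant and NADPH genes, 13 fell and 7 rose. Over all genes 21.7% fell and 16.8% rose, which is the background for each list of this paragraph. Gpx3, a secreted glutathione peroxidase, fell from a median of 657 to 259 CPM and Me3, the mitochondrial malic enzyme, rose from 4.62 to 9.87. On RC 19 of the 34 fatty acid oxidation genes and PPAR targets fell and 2 rose. Their change was more positive on HFHS in 5 and more negative in none. Of the glycolysis genes 7 fell and 1 rose on RC, and the change was more negative on HFHS in 3 and more positive in 2. For the antioxidant genes these counts were 8, 7, 3 and 1.

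The lists of exocytosis and of activin, TGF-beta and BMP genes had shares of calls near those over all genes (16.8% higher and 21.7% lower). Of 22 exocytosis genes, 4 rose and 5 fell, and the rises numbered 2 to 9 when each mouse was left out, with 9, 8 and 7 without 5HF5, 5HF6 and 5HF42 and 2 without 5HF1, 5HF2, 5HF3, 5HF4 or 5HF45. They numbered 9 without both 5HF5 and 5HF6 and none with all 6 strains in the fit. Cplx1, a complexin that clamps vesicle fusion, fell from a median of 5.62 to 0.718 CPM (log2 change -2.84, SE 0.319, adjusted p 7.86e-10), and Stx1a, the plasma membrane syntaxin, from 16.4 to 7.6, both with no overlap. Of 26 incretin and cAMP genes, 8 rose and 7 fell. Adcy8, a calcium-stimulated adenylyl cyclase, fell from 0.684 to 0.331 CPM and Gpr119, a lipid receptor, from 17.3 to 7.81. Of 26 activin, TGF-beta and BMP genes, 5 rose and 6 fell (8 rose without 5HF5 and 5HF6), and the subunits of activin, Inhba (log2 change 1.98, SE 0.286) and Inhbb (1.29, SE 0.204), rose with no overlap.

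Of 19 circadian clock genes, 6 rose and 5 fell, against 16.8% and 21.7% over all genes. Nr1d1, which encodes the repressor REV-ERB alpha, had medians of 46.1, 27.4, 53.5 and 17.2 CPM at days 2, 10, 30 and 90. Dbp, a clock output factor, followed Nr1d1 with 17, 7.69, 18 and 4.86. Of the 11 called genes, 6 had at least 50% of the change at day 10 and not at day 30. The hour of isolation was not given, so its part in these values was not tested.

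Stellate cell and fibroblast genes fell, and the other cell types below gave counts that moved with single mice. Of 19 stellate cell and fibroblast genes, 10 fell and 1 rose (median -0.88), with 10 to 13 falls when each mouse was left out and 9 with all 6 strains in the fit. Sparc, a matrix protein, ran from 199.5 to 577 CPM at day 2 and from 169 to 227 at day 90, and Rgs5, a pericyte marker, rose from a median of 83.3 to 173. Of 15 endothelial genes, 7 rose and 1 fell (median 0.21), with Flt1 (0.41) and Kdr (0.30), both receptors of VEGF. Without 5HF5 4 rose, without 5HF1 or 5HF3 none fell, without the 3 day 90 mice that stood apart 5 rose and 2 fell, without 5HF5 and 5HF6 4 rose and 2 fell, and with all 6 strains in the fit 3 rose and none fell. Of 28 acinar genes tested, none rose and 1 fell, and 0 to 2 fell when each mouse was left out. Without the 3 day 90 mice that stood apart 1 rose and none fell, and the list had a summed level of 1399 to 8015 CPM at day 2 and 894.8 to 9048 at day 90. Of 17 lymphocyte genes, 7 rose and 1 fell. The rises numbered 2 without 5HF1, 5HF2, 5HF4 or 5HF6, 3 without 5HF5 and none without 5HF41, whose summed lymphocyte level was 419.6 CPM against 13.3 to 81.7 in the other day 90 mice. Cd79b, of the B cell receptor, was at 52.1 CPM in that mouse and at 0.317 to 9.14 in the other day 90 mice, and its rise did not pass without 5HF41. Without 5HF5 and 5HF6 1 lymphocyte gene rose. The mouse of the same number on RC, 5RC41, had the highest lymphocyte sum of the day 90 RC mice (305.2 CPM, median 71.92). Of 18 macrophage and dendritic cell genes 3 rose, and 1 without 5HF41 or without 5HF5 and 5HF6.

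**Figure D4:**
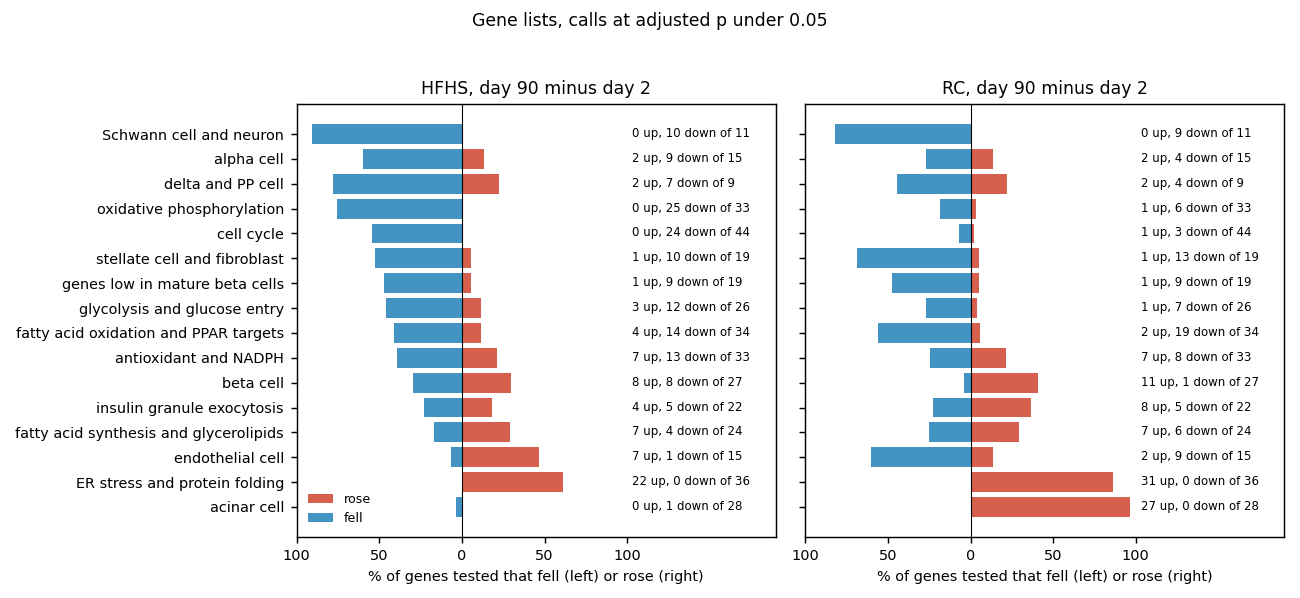
Share of the tested genes of 16 lists that fell (blue, left) or rose (red, right) between day 2 and day 90 on HFHS and on RC, with the counts at the right of each panel. On HFHS 10 of 11 Schwann cell and neuron genes and 25 of 33 oxidative phosphorylation genes fell, and on RC 27 of 28 acinar genes rose.

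The mice of day 10 and day 30 placed the changes in time. Against day 2, 3718 genes passed at day 10 (24%, with 8.72% higher and 15.3% lower) and 6119 at day 30 (39.6%, with 17.7% higher and 21.9% lower), and against day 30, 4929 passed at day 90 (31.9%, with 16.1% higher and 15.8% lower). These comparisons share mice with each other and with the one above. Of the 5959 genes, 2474 (41.5%) had at least 50% of their day 2 to day 90 change in mean log level at both day 10 and day 30, 956 (16%) at day 30 and not at day 10, 2347 (39.4%) at neither, and 182 at day 10 and not at day 30. Some lists departed from these shares: 23 of 24 cell cycle genes and 25 of 25 oxidative phosphorylation genes were of the first kind, and 10 of 11 alpha cell genes, 18 of 22 ER genes and 9 of 10 Schwann cell and neuron genes were of the third. Of 16 beta cell genes, 9 (56.2%) were of the third kind, nearer to the share over all called genes (39.4%).

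From day 30 to day 90 the rises of smallest p were Gc, Aldh1a3, Nucb2 and C1qtnf1, and the falls Dpysl5, Epb4.1l4a, Grb10 and Eef1a2. C1qtnf1, a secreted relative of adiponectin, had medians of 12.7, 10.8, 11.6 and 28.9 CPM at the 4 days. Dpysl5, a protein of axon guidance, had 11.1, 11.5, 9.72 and 2.66, and Grb10, an imprinted adaptor that inhibits the insulin receptor, had 62.2, 64.9, 56.3 and 31. Eef1a2, a translation elongation factor, fell in steps (25.4, 19.9, 15.6 and 6.17 CPM). Slc2a2 had medians of 452, 544, 608 and 357 CPM at the 4 days and Trpm5 of 198, 195, 188 and 90.7.

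On RC, 6256 genes passed over the same time (40.5%), 3246 higher (21%) and 3010 lower (19.5%). No mouse is shared between the diets. On both diets 3009 genes were called, and 2865 of them had the same direction, which is 48.1% of the HFHS calls and 45.8% of the RC calls. The log2 changes of the diets had a Pearson r of 0.437 across 15465 genes, which are not independent replicates. Nmnat2 was 1 of the genes that rose alike, by 1.89 on HFHS and 1.92 on RC, with a difference of -0.04 (SE 0.195, adjusted p 0.925). Schwann cell and neuron genes (9 of 11) and stellate cell and fibroblast genes (13 of 19) fell on RC too, and 31 of 36 ER genes rose. Endothelial genes took another course on RC, where 9 of 15 fell and 2 rose (median -0.30). Their change was more positive on HFHS in 6 and more negative in none.

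The change over time differed between the diets in 1793 genes (11.6%), 705 more positive (4.56%) and 1088 more negative (7.04%) on HFHS. These included 1057 of the 5959 HFHS calls (17.7%), of which 978 had the larger change on HFHS. With all 6 strains in the fit 89 genes were more positive and 57 more negative, and the count was 1188 without 5HF43 and 1171 with a GC curve for each library. The share that was more positive on HFHS depended on the scaling: leaving out Ins1 and Ins2 before scaling gave 964 more positive and 672 more negative, and limma on the authors' normalized table gave 1151 and 509. Acinar RNA moved with the RC groups: 27 of 28 acinar genes rose on RC, with sums of 1435 to 4359 CPM at day 2 and 4751 to 33920 at day 90. With the acinar list as a covariate 1962 genes passed.

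Of 15 alpha cell genes, 10 changed more negatively on HFHS than on RC and 1 more positively. Gcg ran from 20090 to 26180 CPM at day 2 and from 16100 to 22680 at day 90 on RC, and the difference of its changes was -1.51 (SE 0.234, adjusted p 7.02e-05). The day 2 HFHS mice already lay above the day 2 RC mice for Gcg, so both ends enter this value. Irx2 (-1.26) and Sst (-1.18) differed in the same sense, and Ppy did not pass (-0.36, adjusted p 0.544). Aldh1a3 rose on both diets, on RC from a median of 4.91 to 21.8 CPM, and the difference was 3.31 (SE 0.545, adjusted p 0.000117). For Slc2a2 (-0.69), Trpm5 (-0.94) and Chgb (0.59) the change on RC did not pass, and the differences did.

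Among the 10 genes of smallest p for the difference were Gng4, Sytl4, Rragb, Fam81a, Zfyve21, Vps35, Gcg, Gsto2 and Asap3. Gng4, a subunit of G proteins, ran from 238 to 323 CPM (median 286) at day 2 and 184 to 278 (median 212) at day 90 on HFHS, while its RC medians were 189 and 240.1 (difference -0.73, SE 0.101). Sytl4 fell on HFHS from a median of 529 to 296 CPM and had RC medians of 436 and 403. Gsto2, a glutathione transferase, rose on HFHS from a median of 4.04 to 7.98 CPM and fell on RC from 4.46 to 2.49 (difference 1.95). Fam81a fell on HFHS from 13.7 to 7.07 CPM and rose on RC from 11.3 to 14.9. Vps35, of the retromer that sorts endosomes, fell on HFHS from 261 to 218 CPM and rose on RC from 200.2 to 242. With all 6 strains in the fit Asap3, Rragb and Vps35 no longer passed.

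**Figure D5:**
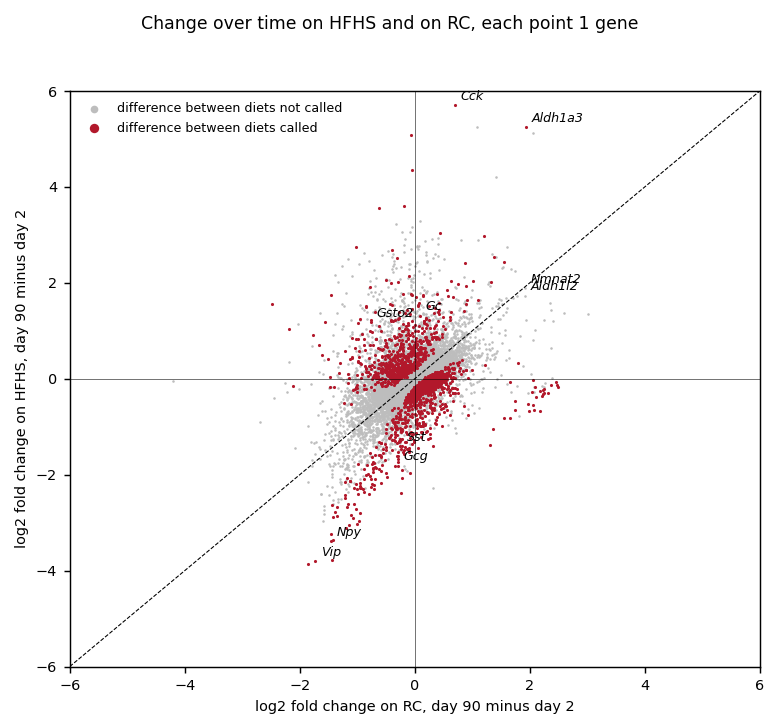
Log2 change from day 2 to day 90 on HFHS (y) against that on RC (x), with 1 point per gene for 15465 genes, the dashed line marking equal change and red the 1793 genes whose changes differed. Cck and Aldh1a3 lie far above the line, Gcg and Sst below it near 0 on RC, and Nmnat2 near it.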

How the data were processed

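RNA-seq libraries of islets were mapped and counted by the authors with TopHat 1.3.3, SAMtools 0.1.16 and HTSeq 0.5.3p3 on build mm9, and edgeR was used, per the submitters' processing notes. The deposited raw table holds whole read counts for 21382 genes. A deposited table of normalized log2 values was used for 1 alternative only.

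Counts were fitted with edgeR 4.0.16 in R 4.3.3: trimmed mean of M values scaling, edgeR's filter on low counts (15465 genes kept), and robust quasi-likelihood tests over the 55 AKR/J libraries in 8 groups, with Benjamini-Hochberg adjustment and a prior count of 2. The interaction term gave the difference between the diets. The test was also tried on counts simulated with the spread that this fit had estimated. It recovered 90 of 100 genes changed 2-fold and 84 of 100 changed 1.5-fold, and called 9 of 15162 unchanged genes. Since the counts were drawn from the fitted model, this could not show a misfit of that model. Alternatives used limma 3.58.1 and DESeq2 1.42.0. By expression of 100 strain-specific genes, 55 of 55 libraries were closest to AKR/J, and no 2 libraries of a group agreed within sampling noise (lowest chi-square per degree of freedom 5.31).

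Genes were named by a rule: the 12 largest rises and 12 largest falls among genes that passed, had a mean of at least 5 CPM and did not overlap between the days; up to 4 genes per list by p; 10 for the difference; 4 per direction for day 90 against day 30; and Elovl2, Ins1, Ins2, Gcg, Sst and Ppy. The comparison, lists and rule were chosen with earlier results of these data known. Promoters came from RefSeq (GRCm38.p6), by gene symbol, and for 10 of 14 promoters with a motif the bases after the start were found in a GENCODE transcript of the gene. A few genes that the rule names are not reported here.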

Additional observations from a re-analysis of the deposited data

Results flagged for a closer look

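For the genes named in the report, the highest or lowest mouse of the day 2 and the day 90 HFHS groups was set against the rest of its group. In 12 of 188 groups that mouse was farther from its nearest neighbour than Dixon's 95% critical value allows, and chance gives about 1 in 20. Mouse 5HF44 accounted for 5 of the 12 within the day 90 group, with Dbp at 16.02 CPM, Eef1a2 at 14.11 CPM, Irx1 at 11.4 CPM, Nr1d1 at 46.28 CPM and Sel1l at 220.2 CPM. Mouse 5HF42 stood apart for Cck at 57.57 CPM, Ins2 at 238500 CPM and Uqcrc1 at 131.3 CPM, mouse 5HF48 for Elovl2 at 54.65 CPM and mouse 5HF41 for Cd79b at 52.09 CPM. At day 2, mouse 5HF4 stood apart for Nr4a1 at 158.1 CPM and mouse 5HF5 for Scg2 at 8615 CPM, the low end of its group.

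For 52 of these genes the change from day 2 to day 90 differed between HFHS and RC by the interaction term of edgeR's quasi-likelihood test at a Benjamini-Hochberg adjusted p under 0.05. Values are HFHS minus RC on the log2 scale, from 8 and 6 HFHS mice and 8 and 5 RC mice. The change was more positive on HFHS for Cck (5), Aldh1a3 (3.31), Gsto2 (1.95), Serpina7 (1.40), Inhba (1.22), Gc (1.22), Me3 (1.21), Rasd2 (1.16), Smoc1 (1.14), C1qtnf1 (1.04), Zcchc12 (1.04), Asap3 (0.99), Pdk1 (0.95) and Gabra4 (0.89). The same held for Dock3 (0.68), Chgb (0.59) and Scg2 (0.46). It was more negative on HFHS for Vip (-2.08), Tac1 (-1.998), Npy (-1.93), Cplx1 (-1.72), Gcg (-1.51), Neurog3 (-1.50), Nr1d1 (-1.33), Irx1 (-1.30), Gap43 (-1.29), Nsg2 (-1.27), Irx2 (-1.26), Fam81a (-1.19), Sst (-1.18) and Dpysl5 (-1.05). Next in size were Eef1a2 (-1.04), Epb4.1l4a (-1.02), Igf2bp2 (-1.01), Rbp4 (-0.9972), Trpm5 (-0.94), Uchl1 (-0.93), Pyy (-0.90), Adcy8 (-0.86), Gpx3 (-0.78), Sytl4 (-0.74), Rragb (-0.74), Gng4 (-0.73), Tyms (-0.73) and Pcna (-0.73). Smaller differences were those of Gpr119 (-0.72), Zfyve21 (-0.71), Grb10 (-0.69), Slc2a2 (-0.69), Pcx (-0.54), Vps35 (-0.53) and Chga (-0.32). The adjusted p ran from 1.6e-05 for Gng4 and Sytl4 to 0.0423 for Gabra4.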

How the results depend on the processing

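With all 6 strains in the fit, which tested 16498 genes and estimated the spread over all strains, 2371 genes passed for day 90 against day 2 on HFHS, 448 for day 10, 1651 for day 30, 1831 for day 90 against day 30, 1332 on RC and 0.885% of the genes tested, against 11.6%, for the difference between the diets. With only the day 2 and day 90 HFHS libraries 3578 passed, and the cause was not tested. With all 6 strains in the fit, fewer genes of most lists also passed: 4 in place of 12 falls for glycolysis, 5 of 14 for fatty acid oxidation, 1 of 4 for fatty acid synthesis, 5 of 13 falls and 1 of 7 rises for antioxidant genes, 2 of 8 rises and 3 of 7 falls for incretin genes, 3 of 6 falls for activin genes, 5 of 8 rises for neuropeptides, 3 of 7 for lymphocytes, 3 of 6 for the clock and none of 3 for inhibitors of the cell cycle. Chga, Glp1r, Kdr, Cdkn1a, Pcx, Ppy, Trib3 and Uqcrc1 no longer passed in it (adjusted p 0.0556 to 0.372). DESeq2's size factors, its Wald test, no filter on low counts, the acinar covariate, a GC curve, leaving out Ins1 and Ins2 before scaling, and limma on the authors' normalized table gave 5521 to 6152 for the HFHS comparison. For the difference, the GC curve gave 7.65%, and the share more positive on HFHS went from 39.3% to 964 of 1636 genes without Ins1 and Ins2 in the scaling, 1151 of 1660 with limma and 999 of 2000 without 5HF41, 5HF44 and 5HF47. Leaving out 1 mouse at a time gave 4964 to 6587 genes on HFHS, 5096 to 6218 on RC and 7.68 to 13.7% for the difference.

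With the Schwann cell and neuron list as a covariate, chosen after seeing the data like the lymphocyte covariate (5979 genes) and the fits without 5HF41, 5HF44 and 5HF47 (5704) or without 5HF5 and 5HF6 (7274), 979 genes passed and 9 of 184 genes named by the rule or the text turned direction: Apod (0.12), Arntl (-0.0347), Fads1 (0.0255), Gal (0.13), Htr3a (0.37), Mfap4 (0.54), Pdx1 (-0.0781), Pla2g1b (0.40) and Thy1 (0.32), as log2 changes. Mice of the same number on the diets were alike in some pairs and not in most. Of 27 such pairs, 9 had a correlation of deviations over 0.1 (range -0.267 to 0.652, with 0.652 for number 41 and 0.323 for number 48 at day 90). Only 4 HFHS mice correlated best with their own number. Number 41 had the highest lymphocyte sum of the day 90 mice on both diets (419.6 CPM on HFHS and 305.2 on RC). With the mouse number as a replicate block, 9.1% of genes (1407) passed for the difference. The shallowest library, 5HF47, held 9526926 assigned reads, and the count of calls without it was 5578.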
